A study of Mus musculus with 12 samples.

Results

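The proteasome genes of mouse fat, with the transcription factor gene Nfe2l1, are described here. They were taken by name: every protein-coding gene whose symbol starts with Psm, a letter from a to g and a number, plus Nfe2l1. This gave 51 genes of 17599 in both deposited comparison tables, all 51 in the table of 16738 genes for inguinal white fat (iWAT) and 50 in the table of 15363 genes for brown fat (BAT). The pattern also takes Psmc3ip and Psme3ip1, partners named after subunits, and Psme2b, a gene copy of Psme2, while Psma8, the alpha subunit of the testis, is listed for white fat only. Nfe2l1 lies outside the pattern and was added by name. Gene position and values are not part of this rule, but earlier results of these data were known when it was set.

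RNA was sequenced from iWAT, the subcutaneous fat of the groin, of C57BL/6 mice on a high-fat diet at room temperature. Each sex had WT and KO libraries, 3 per group and 12 in all, and the KO mice lacked NDUFS4, a complex I subunit of the respiratory chain, in their adipocytes. Neither the promoter behind the deletion, the animals' age nor the number of animals behind a library is named in the labels. The p-values therefore reflect variation among libraries, which may be technical. The labels list no brown fat library, so that table is read as the authors' comparison alone. Both tables hold 1 contrast fitted with limma, called the interaction below: the log2 effect of KO against WT in females minus that effect in males, in the order of the tables' names. A value above 0 may come from a higher level in KO females, a lower level in KO males, or the WT groups, and these cannot be told apart here. Library values, levels per group and depth were not analysed here, so errors are the standard errors (SE) of the authors' fit.

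The proteasome is the protease that degrades proteins tagged with ubiquitin. Its barrel, the 20S core, has outer rings of alpha subunits and inner rings of beta subunits that carry the active sites, and the 19S cap recognises, unfolds and feeds in substrates. NFE2L1 is held at the endoplasmic reticulum, is itself degraded by proteasomes, and raises transcription of proteasome genes when their activity falls. In brown fat it is known for keeping proteasome supply in step with thermogenic load. In cells exposed to interferon, PSMB8, PSMB9 and PSMB10 replace the catalytic subunits PSMB5, PSMB6 and PSMB7, which forms the immunoproteasome, a supplier of peptides for antigen presentation.

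In white fat, Nfe2l1 and the lid subunit gene Psmd7 lay above 0, the immunoproteasome gene Psmb8 lay below 0, and 1 of 31 constitutive subunits, Psmd7 itself, passed the test. At an adjusted p of 0.05 in limma, 3 of 51 members passed, against 4.75% of all genes. Above 0 there were 2 (1.06% of all genes) and below 0 there was 1 (3.69%). Among all genes 177 calls lay above 0 and 618 below, and with the median of all genes subtracted, 108 and 852. The members' share is near the background, so the number of calls says nothing particular about these genes. At an unadjusted p of 0.05, 15 members (29.4%) passed, against 24.5% of all genes. The members' median interaction was 0.31 and that of all genes 0.13, and 70.6% of members against 55.9% of all genes lay above 0. Counted from the median of all genes, 32 of the 51 lay above it.

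**Figure D1:**
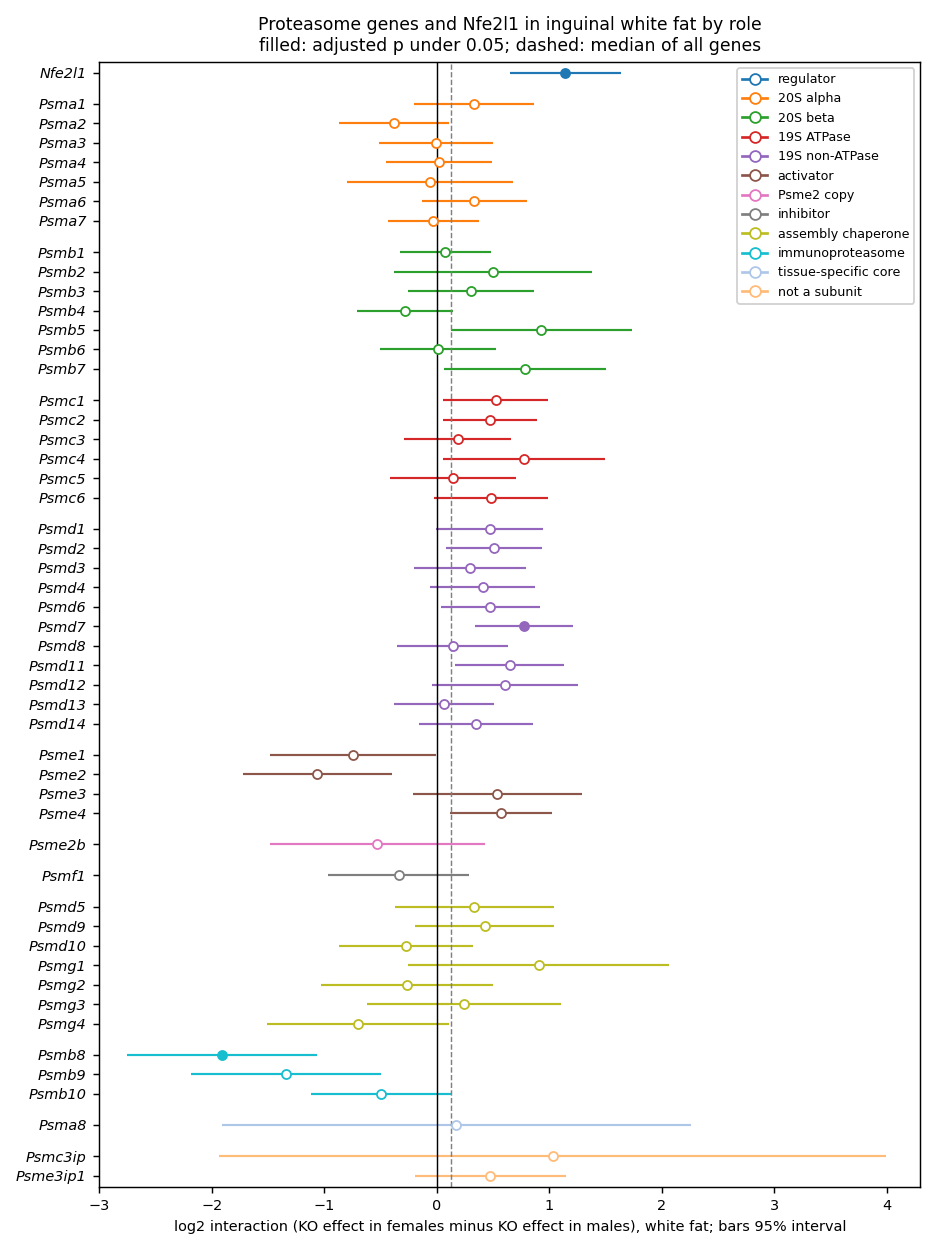
Log2 interaction (KO effect in females minus KO effect in males) of the 51 members in white fat, grouped by role. Points are the authors' estimates with 95% intervals, filled at an adjusted p under 0.05, and the dashed line is the median of all genes, 0.13. Nfe2l1, Psmd7 and Psmb8 are the filled points, and all 17 subunits of the 19S cap lie to the right of 0, of which Psmd13 lies left of the dashed line.

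Nfe2l1 (ENSMUSG00000038615.18, chromosome 11, 96708240 to 96720794, minus strand, GRCm39) had the highest interaction of the members. The authors' deposited table for white fat gave 1.14 ± 0.23 (SE), an adjusted p of 0.0357 in limma and a 95% interval from 0.65 to 1.63. On a linear scale, the ratio of KO to WT in females was 2.21 times that in males (95% interval 1.57 to 3.10). In brown fat the authors' deposited table gave 0.33 ± 0.17 (SE, adjusted p = 0.778 in limma). The white fat value exceeded the brown fat one by 0.81 ± 0.28 (SE), which did not pass when adjusted over 14502 shared genes (adjusted p = 0.168, Welch-Satterthwaite test). Its interval in brown fat, -0.013 to 0.68, includes 0.

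Among proteins that process or partner NFE2L1, 18 of 19 listed genes were measured in white fat and 1 passed, against 4.75% of all genes. The one was Bach2, a repressor that competes for related DNA sites and is abundant in B cells, at -4.05 ± 0.87 (SE, adjusted p = 0.0357 in limma) in the authors' deposited table. The list's median was 0.26, with 13 genes above 0 (10 above the median of all genes) and 5 below 0. Ddi2, the protease that cleaves NFE2L1 into its active form, was at 0.27 ± 0.22, and Ngly1, the enzyme that removes its sugar chains, at 0.60 ± 0.38 in the authors' deposited table. Mafg, a small Maf protein that pairs with NFE2L1 on DNA, was at 0.55 ± 0.26 (SE, adjusted p = 0.214 in limma) in the authors' deposited table. Nfe2l2, the related factor of the oxidant response, had 0.40 ± 0.22, and Nfe2l3 2.39 ± 1.21, at an adjusted p of 0.275 and 0.240 in limma in the authors' deposited table. In brown fat 0 of the list's 18 genes passed the adjusted p in limma, against 0.013% of all genes. At an unadjusted p of 0.05, 0 passed there, against 6.51% of all genes. In white fat B cell markers (median -8.61 over 8 genes) and T cell markers (median -7.83 over 11) also lay below 0. The part of these cells in the value of Bach2 was not tested.

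NFE2L1 binds antioxidant response elements, so the members' promoters were searched for the letters TGACNNNGC on both strands. RefSeq windows of 300 bases (GRCm38.p6, 250 before to 50 after the start) were found for 43 of 51 members, and not for Psmd7. Of these 43 genes, 6 (14.0%) held a match, as did 14.0% of the 27025 genes with a window. Matches in the members were thus as frequent as in any promoter of this length. The 5 stretches that lie wholly before the start are printed to show where the letters sit, with the match in capitals, from 5′ to 3′ on the strand of the gene.
Psmb5, chr14:54618014-54618062, minus strand: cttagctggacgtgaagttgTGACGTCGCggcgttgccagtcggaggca
Psmb6, chr11:70525328-70525356, plus strand: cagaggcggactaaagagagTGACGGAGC
Psmd9, chr5:123228139-123228187, plus strand: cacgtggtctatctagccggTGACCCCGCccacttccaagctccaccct
Psmc6, chr14:45329577-45329625, plus strand: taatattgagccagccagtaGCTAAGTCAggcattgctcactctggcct
Psmd12, chr11:107479278-107479309, plus strand: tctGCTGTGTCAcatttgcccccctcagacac
The match starts 47 bases before the start in Psmb5, 9 in Psmb6 and 31 in Psmd9, and in Psmc6 and Psmd12 it is on the opposite strand, 227 and 247 bases before. White fat interactions of these genes ran from 0.013 for Psmb6 to 0.93 for Psmb5 in the authors' deposited table, with Psmd9 at 0.43, Psmc6 at 0.48 and Psmd12 at 0.61. None of the 5 passed the threshold, and with the median of all genes subtracted Psmb6 lay below 0 (-0.117). The sixth match, in Psme4, spans the start and is not printed.

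All 17 subunits of the 19S cap had a white fat interaction above 0, with a median of 0.47, a range from 0.063 to 0.78 and a median SE of 0.22. Counted from the median of all genes, 16 were above it, and Psmd13 was at -0.0678. At an unadjusted p of 0.05, 7 passed above 0, against 11.9% of all genes in that direction. Past the adjusted p there was 1, Psmd7, against 1.06% of all genes above 0. Brown and beige adipocyte markers (5 of 5 above 0, median 3.29) and skeletal muscle markers (7 of 7, median 3.71) also lay above 0 in this table, with 0 of either list past the adjusted p. Their errors were wide, with median SEs of 2.79 and 2.87, and 0 and 1 passed an unadjusted p of 0.05. Adipocyte markers lay above 0 as well (6 of 6, median 0.32, 0 past the adjusted p and 1, Pparg, past an unadjusted p of 0.05), 4 of them above the median of all genes. T cell and B cell markers all lay below 0 (medians -7.83 over 11 genes and -8.61 over 8, with 10 and 4 past the adjusted p). The part of these cell types in the values of the cap was not tested.

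Psmd7 (chromosome 8, 108307013 to 108315096, minus strand, GRCm39), a lid subunit that pairs with the deubiquitinase PSMD14, had 0.78 ± 0.20 (SE, adjusted p = 0.0465 in limma) in the authors' deposited table. The ratio of KO to WT in females was 1.71 times that in males (95% interval 1.27 to 2.32). With every value taken from the median of all genes it was 0.65 and no longer passed (adjusted p = 0.0767, limma's t recomputed). Its partner Psmd14, the enzyme that cuts ubiquitin chains off substrates, was at 0.35 ± 0.24 (SE, adjusted p = 0.372 in limma) in the authors' deposited table. Psmd11, a lid scaffold, came next with 0.65 ± 0.23 (SE, adjusted p = 0.103 in limma) in the authors' deposited table. Psmd2, a base scaffold that docks ubiquitin carriers, was at 0.51 ± 0.20 (adjusted p = 0.133), and Psmd4, a ubiquitin receptor, at 0.41 ± 0.22 (adjusted p = 0.259) in limma in the authors' deposited table. The lowest of the non-ATPase subunits were Psmd13 with 0.063 ± 0.21 and Psmd8 with 0.14 ± 0.23 in the authors' deposited table, both lid subunits.

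The 6 ATPases that form the unfolding ring of the cap had a median of 0.48, with 3 past an unadjusted p of 0.05, all above 0 (11.9% of all genes), and 0 past the adjusted p. Psmc4 was highest at 0.78 ± 0.33 (SE, adjusted p = 0.171 in limma) in the authors' deposited table. Psmc2 and Psmc1 had the smallest p of the ring, with 0.47 ± 0.19 (adjusted p = 0.156) and 0.52 ± 0.22 (adjusted p = 0.157) in limma in the authors' deposited table. Psmc5 was lowest, with 0.15 ± 0.26 in the authors' deposited table. The median SE in the ring was 0.23.

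The 20S core stood nearer to 0, and its rings had different medians. The 7 alpha subunits had a median of -0.0045, with 3 above 0 (42.9%, against 55.9% of all genes) and 4 below. At an unadjusted p of 0.05, 0 of the 7 passed, against 24.5% of all genes. Psma6 was highest at 0.33 ± 0.22, and Psma2 lowest at -0.38 ± 0.23 in the authors' deposited table, which gave adjusted p-values in limma of 0.360 and 0.315. Psma1 was at 0.33 ± 0.25 in the authors' deposited table. Psma4, at 0.019 ± 0.22 in the authors' deposited table, moved to -0.111 once the median over all genes was subtracted. Psma3, Psma5 and Psma7 lay between -0.059 and -0.0045. The ring that gates the core held no gene past the adjusted p, against 4.75% of all genes.

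The 7 constitutive beta subunits had a median of 0.31, with 6 above 0, of which Psmb1 (-0.0549) and Psmb6 (-0.117) fell below 0 relative to the median of all genes. Psmb5, which cuts after hydrophobic residues, had 0.93 ± 0.37 (SE, adjusted p = 0.146 in limma) in the authors' deposited table. Psmb7, which cuts after basic residues, had 0.79 ± 0.33 (SE, adjusted p = 0.168 in limma) in the authors' deposited table. Psmb6, the third catalytic subunit, was at 0.013 ± 0.24 in the authors' deposited table, and Psmb4, a structural subunit, was the only one below 0 at -0.28 ± 0.20. Of 14 core subunits, only Psmb5 and Psmb7 passed an unadjusted p of 0.05 (14.3%, against 24.5% of all genes, 11.9% above 0). Their errors were wider than those of Psmb6, and neither passed the adjusted p.

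The immunoproteasome subunits lay below 0 in white fat, all 3 of them, with a median of -1.34. Psmb8 (chromosome 17, 34416695 to 34420428, plus strand, GRCm39) had the lowest interaction of all members, -1.91 ± 0.39 (SE, adjusted p = 0.0357 in limma) in the authors' deposited table. The ratio of KO to WT in females was 0.267 times that in males (95% interval 0.148 to 0.479). Psmb9 (chromosome 17, 34400961 to 34406738, minus strand, GRCm39) had -1.34 ± 0.39 (SE, adjusted p = 0.0629 in limma) in the authors' deposited table and did not pass. Psmb10 (chromosome 8, 106662367 to 106665076, minus strand, GRCm39) was at -0.49 ± 0.29 (SE, adjusted p = 0.312 in limma) in the authors' deposited table. With the median of all genes subtracted, Psmb9 was at -1.47 and passed (adjusted p = 0.0468, limma's t recomputed). Psmb8 was called under every setting tried, and Psmb10 under none.

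Set against the subunits they replace, the immunoproteasome genes were lower in the interaction in each pair. Psmb5 exceeded Psmb8 by 2.84, Psmb6 exceeded Psmb9 by 1.35 and Psmb7 exceeded Psmb10 by 1.28 on the log2 scale in white fat. In brown fat the same differences were 1.15, 0.024 and 0.85. Both genes of a pair come from the same libraries and the covariance of their errors is not in the tables, so these differences were not tested.

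Psmb8 and Psmb9 sit beside the peptide transporter genes Tap1 and Tap2 in the major histocompatibility complex. Tap1 (chromosome 17, 34406527 to 34416199, plus strand, GRCm39) ends 495 bases before Psmb8 and overlaps Psmb9 by 212 bases on the other strand. No source used here says whether the counting used strand, so reads in that overlap cannot be assigned with certainty. Tap1 had -2.06 ± 0.55 (SE, adjusted p = 0.0479 in limma) and Tap2 1.78 ± 0.99 (SE, adjusted p = 0.281 in limma) in the authors' deposited table for white fat. Tap2 was the 1 gene above 0 among 15 listed genes of the immunoproteasome and antigen presentation that interferon induces.

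Of those 15 genes, 14 lay below 0, and 5 passed the adjusted p below 0, against 3.69% of all genes. The list includes Psmb8, Psmb9, Psmb10, Psme1 and Psme2, and the 10 genes that are no members had a median of -0.89 with 4 past the adjusted p. Besides Tap1 these were Nlrc5, the transactivator of class I genes, at -2.41 ± 0.46 (SE, adjusted p = 0.0355 in limma), and Irf1, an interferon response factor, at -1.51 ± 0.32 (SE, adjusted p = 0.0357 in limma) in the authors' deposited table. Ciita, the transactivator of class II genes, was the fourth, with -3.59 ± 0.81 (SE, adjusted p = 0.0357 in limma) in the authors' deposited table. B2m, the light chain of class I molecules, was at -0.34 ± 0.36 (SE, adjusted p = 0.579 in limma) in the authors' deposited table.

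Markers of lymphocytes lay below 0 in white fat, as the immunoproteasome genes did. All 11 T cell markers lay below 0 (median -7.83, range -9.15 to -3.90, 10 past the adjusted p) and all 8 B cell markers (median -8.61, range -11.43 to -5.22, 4 past the adjusted p). Of 6 macrophage markers 5 lay below 0 (6 below the median of all genes), with a median of -0.12 and 0 past the adjusted p or an unadjusted p of 0.05, and of 3 endothelial markers 1. Their part in the values of Psmb8, Psmb9 and the other presentation genes was not tested, and their summed level per group was not analysed here. In bulk tissue, fewer cells of a type and less RNA per cell cannot be told apart. In brown fat only 5 T cell and 4 B cell markers are listed, with medians of 0.69 and 0.31 and 0 past the adjusted p or an unadjusted p of 0.05. Psmb8 and Psmb9 were at -0.20 ± 0.62 and -0.12 ± 0.84 (SE, adjusted p = 0.980 and 0.985 in limma) there in the authors' deposited table.

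**Figure D2:**
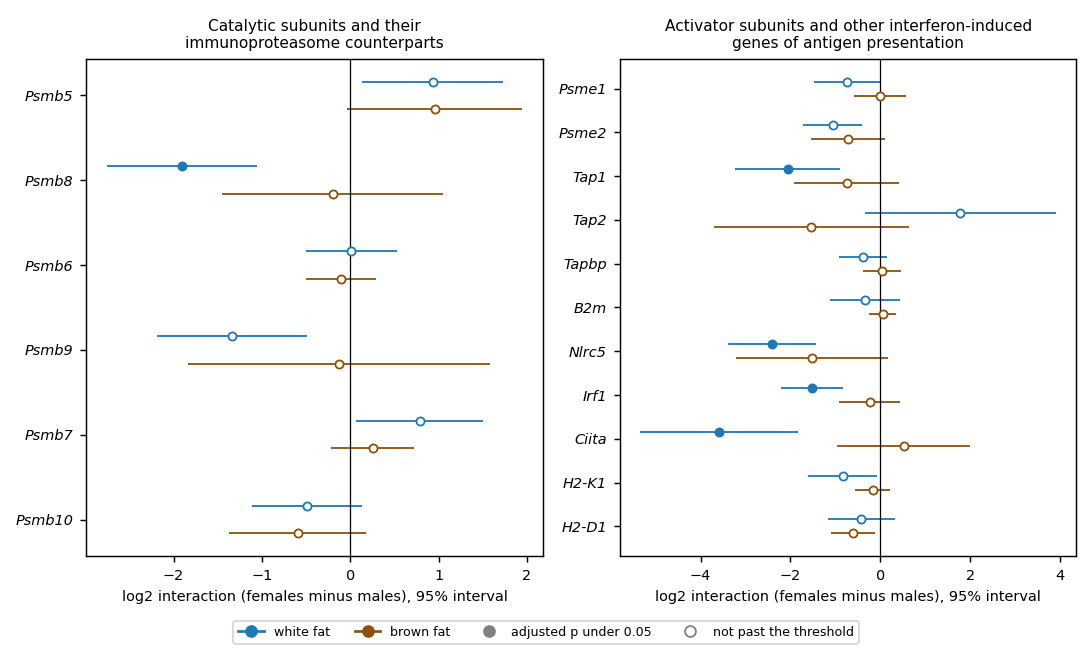
Log2 interactions with 95% intervals in white fat (blue) and brown fat (brown), filled at an adjusted p under 0.05. On the left each catalytic subunit is followed by its immunoproteasome counterpart, and on the right are Psme1, Psme2 and other interferon-induced genes. In white fat Psmb8, Tap1, Nlrc5, Irf1 and Ciita are filled, and no brown fat point is.

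The promoter of Psmb8 held 1 of the 2 matches among members to TTCCNNGAA, the letters of a gamma-activated site, searched on both strands. The match starts 97 bases before the start, and the stretch is shown because Psmb8 is the called member of this class.
Psmb8, chr17:34198078-34198126, plus strand, GRCm38.p6, RefSeq: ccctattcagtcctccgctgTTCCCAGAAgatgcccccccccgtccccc
Of 43 members with a window 2 (4.65%) held these letters, as did 5.6% of all 27025 genes. The interferon-stimulated response element, searched on both strands as GAAA, any 2 bases and GAAA, was found in 5 members (11.6%) and 3.99% of all genes. Those 5 were Psmb3, Psmd4, Psmd9, Psme1 and Psmg4, and of them Psme1 alone belongs to the interferon-induced list.

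The activators, which open the gate of the core without the 19S cap, were divided. Psme2 (chromosome 14, 55824898 to 55828570, minus strand, GRCm39) and Psme1 (chromosome 14, 55815580 to 55818986, plus strand, GRCm39) encode the partners of the interferon-induced PA28 ring and lie 5911 bases apart. Psme2 was at -1.06 ± 0.31 (SE, adjusted p = 0.0608 in limma), and Psme1 at -0.74 ± 0.34 (SE, adjusted p = 0.202 in limma) in the authors' deposited table. Neither passed, but with that median subtracted Psme2 was at -1.19 and passed (adjusted p = 0.0407, limma's t recomputed). Psme4, which encodes the large nuclear activator PA200, was at 0.57 ± 0.21 (SE, adjusted p = 0.121 in limma), and Psme3, the nuclear member of the PA28 family, at 0.54 ± 0.35 (SE, adjusted p = 0.354 in limma) in the authors' deposited table. The interferon-induced activators thus lay below 0 and the others above, none past the threshold.

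Psme2b, the copy of Psme2, was at -0.53 ± 0.44 (SE, adjusted p = 0.480 in limma) in the authors' deposited table. No source used here says how the counting shared reads between Psme2 and a near-identical copy, so both values are uncertain. All 837 bases of Psme2b also lie within Gm12185 on the same strand, a gene at -4.42 (adjusted p = 0.0619 in limma) in the authors' deposited table. Psmf1, an inhibitor of the core, was at -0.34 ± 0.29 (SE, adjusted p = 0.495 in limma) in the authors' deposited table.

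Chaperones that assemble the proteasome lay on both sides of 0. Of 7, 4 were above 0 (57.1%, against 55.9% of all genes) and 3 below, with a median of 0.24. At an unadjusted p of 0.05, 0 passed, against 24.5% of all genes. The core chaperones Psmg1 and Psmg4 were at the ends, with 0.91 ± 0.54 and -0.70 ± 0.38 (SE, adjusted p = 0.312 and 0.266 in limma) in the authors' deposited table. The authors' deposited table gave Psmg2 and Psmg3 -0.27 ± 0.36 and 0.24 ± 0.40. For the chaperones of the cap base, Psmd5, Psmd9 and Psmd10, the authors' deposited table gave 0.34 ± 0.33, 0.43 ± 0.29 and -0.27 ± 0.28. Psma8 was at 0.18 ± 0.97, and the partner genes Psmc3ip and Psme3ip1 at 1.03 ± 1.38 and 0.48 ± 0.31 in the authors' deposited table. Psma8 and Psmc3ip had the lowest mean log2 expression of the members, 0.60 and 0.50, and the widest errors.

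Beyond the Psm genes, 16 of 17 other listed genes of the proteasome were measured in white fat. Of these, 15 lay above 0 (14 above the median of all genes) with a median of 0.30, 3 (18.8%) passed an unadjusted p of 0.05, against 24.5% of all genes, and 0 the adjusted p. Ecpas, a scaffold that binds proteasomes under stress, had the smallest p at 0.75 ± 0.22 (SE, adjusted p = 0.0633 in limma) in the authors' deposited table. Txnl1, a thioredoxin on the cap, was at 0.49 ± 0.19 (adjusted p = 0.138) and Ubqln4, a ubiquitin carrier, at 1.35 ± 0.56 (adjusted p = 0.161) in limma in the authors' deposited table. The exception below 0 was Pomp, the chaperone that matures the core, at -0.48 ± 0.26 (SE, adjusted p = 0.263 in limma) in the authors' deposited table. For Adrm1 and Sem1, cap subunits whose symbols fall outside the pattern, the authors' deposited table gave 0.56 ± 0.36 and 0.17 ± 0.23.

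Of 5 measured genes that encode ubiquitin or its activating enzymes, 1 passed, against 4.75% of all genes (3.69% below 0). It was Rps27a, which encodes ubiquitin fused to a ribosomal protein, at -1.54 ± 0.27 (SE, adjusted p = 0.0355 in limma) in the authors' deposited table. The polyubiquitin gene Ubb was at -0.031 ± 0.27 and the activating enzyme Uba1 at 0.14 ± 0.21 in the authors' deposited table.

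**Figure D3:**
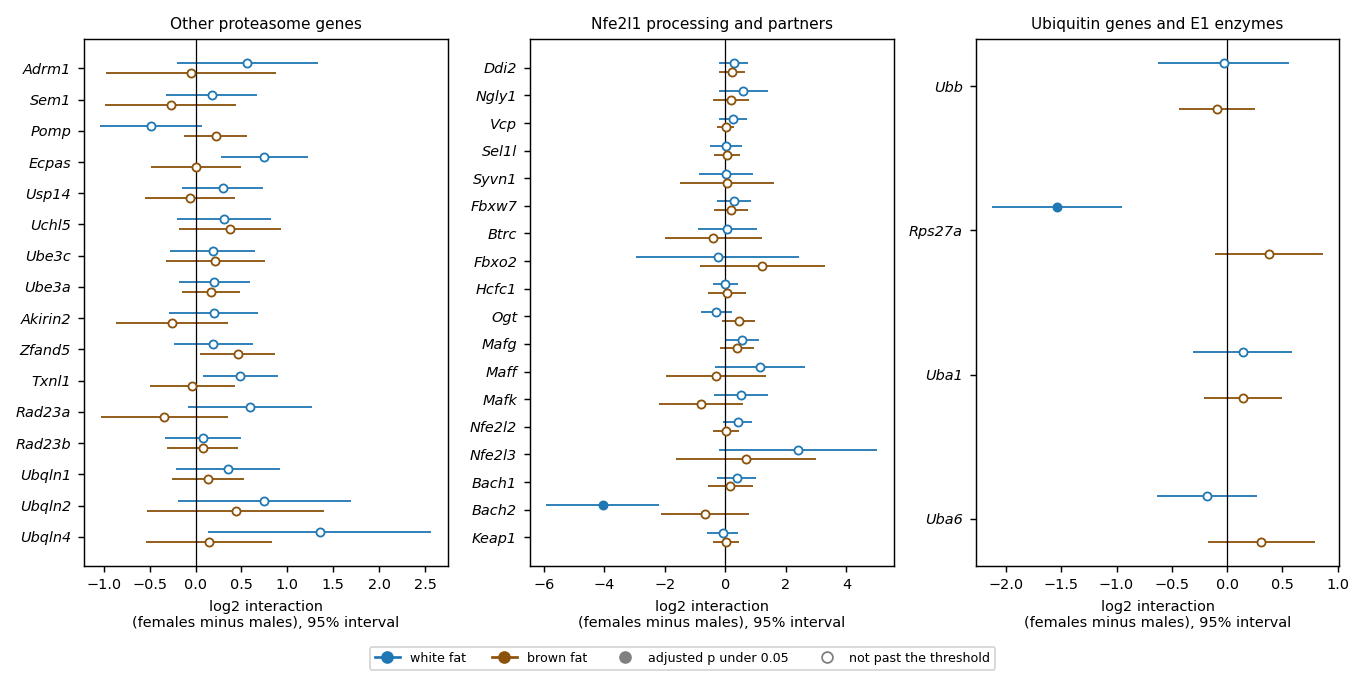
Log2 interactions with 95% intervals of genes that are no members, in white fat (blue) and brown fat (brown): other proteasome genes, genes that process or partner NFE2L1, and ubiquitin genes with the activating enzymes. Filled points passed an adjusted p of 0.05. Only Bach2 and Rps27a in white fat are filled, and 15 of 16 other proteasome genes lie above 0 in white fat, 14 of them above the median of all genes.

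In brown fat no member passed. Of 50 members, 0 passed the adjusted p in limma, against 0.013% of all genes (2 of 15363), and 2 passed an unadjusted p of 0.05, against 6.51%. The 2 were Psma1 at 0.36 ± 0.18 and Psme2b at -1.13 ± 0.56 (SE, adjusted p = 0.764 each in limma) in the authors' deposited table, 1 above 0 against 3.33% of all genes and 1 below against 3.18%. Psme2b lies wholly within Gm12185, so its value is uncertain here as well. The members' median was 0.083, against 0.012 over all genes, and 33 were above 0 (32 above the median of all genes). Skeletal muscle markers all lay below 0 in this table (7 of 7, median -3.34, 0 past the adjusted p). At an unadjusted p of 0.05, 4 of these 7 passed below 0, against 3.18% of all genes. The part of muscle in the members' values was not tested. Alpha subunits had a median of 0.19 with 7 of 7 above 0, beta subunits 0.25 with 6 of 7, ATPases 0.044 with 4 of 6, and non-ATPase subunits of the cap 0.12 with 9 of 11. In white fat the cap had the higher median (0.47 against 0.047 for the core), and in brown fat the core did (0.21 against 0.087), an order that was not tested. Psmb5 had nearly the same value in both depots, 0.95 ± 0.49 (SE) in brown fat in the authors' deposited table.

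White and brown fat were compared directly for the 50 members in both tables, by the difference of their interactions with Welch-Satterthwaite degrees of freedom. None passed when adjusted over 14502 shared genes, of which 36 (0.248%) did. At an unadjusted p of 0.05, 7 of the 50 members passed, against 15.7% of shared genes. That share is near the background, so the count says nothing particular about the members. The 7 were Nfe2l1, Psmb8, Psmc2, Psme4, Psmc1, Psmd7 and Psmd2, with adjusted p from 0.168 to 0.314. For Psmb8 the interaction in white fat minus that in brown fat was -1.71 ± 0.73 (SE, 95% interval -3.18 to -0.24). Psmc2 differed by 0.73 ± 0.31 and Psmc1 by 0.60 ± 0.28, both ATPases, and Psme4 by 0.60 ± 0.28. The differences of Psmd7 and Psmd2 were 0.58 ± 0.27 and 0.57 ± 0.28. Of the 50 members, 26 were above 0 in both depots, 8 below 0 in both and 16 on opposite sides, with no median subtracted. The test takes the tables as independent, and whether both depots came from the same animals is not stated in the labels.

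**Figure D4:**
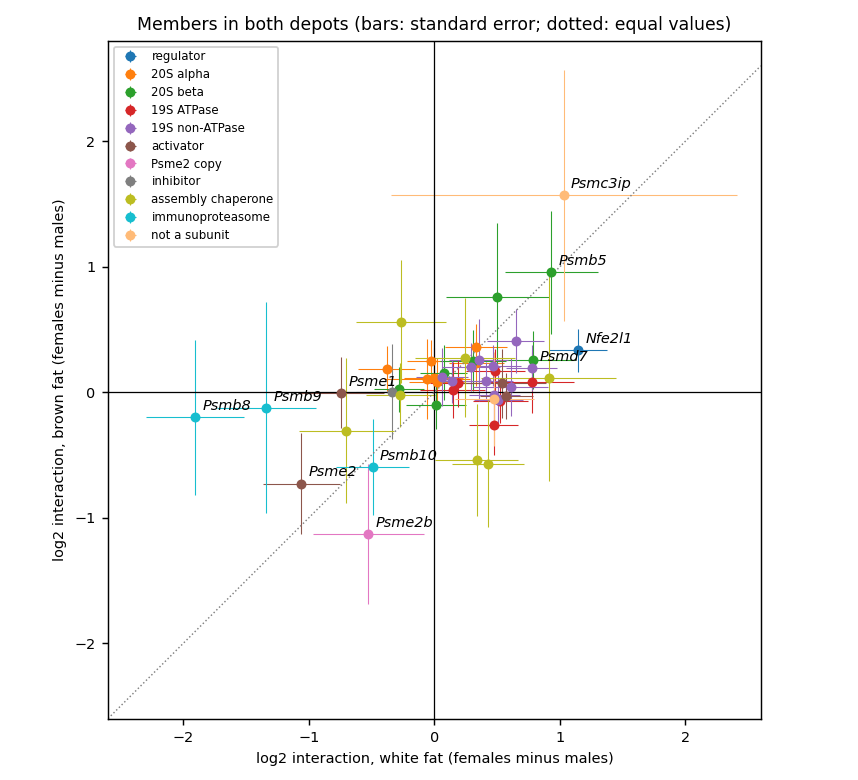
Log2 interaction in white fat (horizontal) against brown fat (vertical) for the 50 members in both tables, coloured by role, with standard errors as bars and the dotted line marking equal values. Psmb8 and Psmb9 lie far left near 0 on the vertical axis, Nfe2l1 lies right of the dotted line at 1.14 against 0.33, and Psmb5 lies close to that line.

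The immunoproteasome genes had a lower mean log2 expression over the libraries in brown fat than in white fat. How the libraries of each depot were normalised is unknown here, so these levels are given side by side and not tested. Psmb8 had 6.13 in white fat and 3.26 in brown fat, and Psmb9 4.74 and 2.09 in the authors' deposited tables. Psmb10 had 5.63 and 4.75, and Psme2 6.46 and 4.77 in the authors' deposited tables. The subunits they replace were nearly level, Psmb5 at 4.19 in both, Psmb6 at 7.12 and 7.26 and Psmb7 at 6.34 and 6.42 in the authors' deposited tables. A lower level in brown fat was not particular to the immunoproteasome. The 10 interferon-induced genes that are no members had medians of 6.79 in white fat and 5.29 in brown fat. Macrophage markers had medians of 5.43 and 3.29. For T cell markers the medians were 2.28 over 11 genes and 0.11 over 5, and for B cell markers 1.59 over 8 and -0.089 over 4. Nfe2l1 was at 7.46 in white fat and 7.77 in brown fat in the authors' deposited tables.

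The targeted gene, Ndufs4, had an interaction of 0.89 ± 0.38 (SE, adjusted p = 0.169 in limma) in white fat and -0.099 ± 0.14 (SE, adjusted p = 0.946 in limma) in brown fat in the authors' deposited tables. The interaction does not show how far it fell in either sex and so does not check the labels. Adipocyte markers were present, with a median mean log2 expression of 10.32 in white fat over 6 genes. Of the 51 members 15 overlap another listed gene, 11 of them on the other strand, which matters where the counting ignored strand, and 5 on the same strand, which matters under either setting. Psmd7, Psmb8 and Nfe2l1 overlap none of the genes in either table.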

How the data were processed

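The series holds RNA sequencing of mouse fat. The submitters' processing notes name featureCounts, limma and GRCm39. Versions, aligner, annotation, strand setting and normalisation: not given in the sources used here. Per the file headers, the comparison tables hold limma's columns. The log2 interaction and mean log2 expression are deposited values, t is a score, also deposited, and the p-value and adjusted p-value are the authors' (the latter matched a Benjamini-Hochberg recomputation within each table). The 48 columns of library values, 12 in each of 4 tables, have names that match no label and were used in no step, so the planned limma fits within each sex were not made, and depth is unknown.

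An SE is the size of the log2 interaction over that of t, and 95% intervals use the 13.4 (white fat) or 33.9 (brown fat) total degrees of freedom that t and p imply. Depots were compared by the difference of interactions over the root of summed squared SEs, with Benjamini-Hochberg adjustment, a step tested on simulated data. Members, lists, roles and motifs were chosen with earlier results of these data known. Named genes were Nfe2l1, the immunoproteasome genes, members past an adjusted p of 0.05, and in each role those with the smallest p and the highest and lowest interaction; of other lists, those past the threshold and up to 3 with the smallest p. Other genes of these lists, such as Ddi2, Ngly1, B2m, Tap2, Pomp, Adrm1, Sem1 and Uba1, and further members, such as Psmd14, Psmd4, Psma1 and Psma4, were named after values were seen. Single values of some listed genes are not reported here, and the figures leave these genes out. Alternatives were a threshold of 0.10, protein-coding genes only, a minimum of log2 of 10 on mean log2 expression, and centring on the median of all genes; leaving out Nfe2l1, Psmc3ip, Psme3ip1 and Psme2b was chosen after seeing the data. Tables were computed in Python 3.11.15 with pandas 2.3.3, scipy 1.17.1 and numpy 2.4.6, and drawn with matplotlib 3.10.9.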

Additional observations from a re-analysis of the deposited data

Results flagged for a closer look

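In 3 members the KO effect differed between females and males by the interaction term itself, in the authors' deposited table for white fat. Nfe2l1 had 1.14, Psmd7 0.78 and Psmb8 -1.91 on the log2 scale. With the median of all genes subtracted, Psmd7 was at 0.65 and no longer passed (adjusted p = 0.0767, limma's t recomputed). Which sex carries the difference was not analysed here.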

How the results depend on the processing

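In white fat, moving the threshold to 0.10 gave 5 called members in place of 3, the added genes being Psme2 and Psmb9. Protein-coding genes only and the expression minimum gave 3, and centring on the median of all genes (a shift of 0.13) gave 4. That centring turned the split of member calls from 2 above and 1 below 0 to 1 above and 3 below, and that of all calls from 177 above and 618 below to 108 and 852. It put Psmb1 at -0.0549, Psmd13 at -0.0678, Psma4 at -0.111 and Psmb6 at -0.117 in white fat and Psmf1 at -0.0080 in brown fat, all on the other side of 0 and none called. Nfe2l1 and Psmb8 were called under each of these settings. Leaving out Nfe2l1, Psmc3ip, Psme3ip1 and Psme2b, chosen after seeing the data, left 2. Calls of members in brown fat and between depots stayed at 0 under all settings run. At the median SE of the members, an interaction had to reach 0.97 in white fat and 1.38 in brown fat to be called. No paired analysis was possible because the library columns carry no replicate numbers and could not be matched to labels. For the same reason the fits within each sex, other pseudocounts, filters on library values and fits without single replicates were not run.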
